A study of Mus musculus with 24 samples.

Results

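Protein-protected sites (PPSs) mapped with dsRNase were compared between day 2 and day 4 of DMSO-induced erythroid differentiation in MEL cells, a murine erythroleukemia line that starts to make hemoglobin when DMSO is added. In PIP-seq, formaldehyde-crosslinked lysate is digested with an RNase while proteins are still bound (footprint library) or after proteins have been removed (structure-only library), and a PPS is a stretch with more reads in the first than in the second. The dsRNase is RNase V1, which cuts paired bases, so the PPSs described here are stretches that were shielded from an enzyme of paired RNA. A PPS entered the set when its record held at least 1 dsRNase call of either replicate at day 2 or day 4. PPSs of 20 to 40 nt, the size that ribosomes protect, were left out. This gave 118894 PPSs, 40398 at day 2 and 78496 at day 4, of 460777 in the lists of the 3 days (day 0, day 2 and day 4). Another 37004 dsRNase PPSs of day 2 and day 4 fell to the length filter.

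All cells were from this 1 line and carried no engineered allele. Day 2 and day 4 cells had both been given 2% DMSO, and day 0 cells had not. Each day and replicate formed 1 call set, made from 1 footprint and 1 structure-only library, so the 4 call sets rest on 8 of the 24 libraries. The study calls the replicates biological, and the labels do not say that they were separate cultures. Read depth per library is unknown from the lists.

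Double-stranded stretches of an mRNA are hairpins, long-range pairs in UTRs, and pairs within introns, and proteins that read them include iron regulatory proteins, the stem-loop binding protein of histone mRNAs and Staufen. In erythroid cells the best known example is the iron-responsive element, a hairpin with a CAGUGN loop. Iron regulatory proteins bind a series of these hairpins in the 3′ UTR of the transferrin receptor mRNA and protect it from decay when iron is short.

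The Tfrc hairpins are shown because this mRNA had the largest rise among the genes named here by the smallest of the 4 pairwise differences. Sequences were read from GRCm38 (RefSeq assembly), in which Tfrc (ENSMUSG00000022797.16) occupies chr16:32608920-32632794 on the plus strand. The 4 elements lie in its 3′ UTR, and capitals mark the bulged C and the 6-nt loop.
Tfrc element 1, chr16:32631219-32631247: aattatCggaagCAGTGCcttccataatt
Tfrc element 2, chr16:32631598-32631626: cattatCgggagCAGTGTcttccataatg
Tfrc element 3, chr16:32631663-32631691: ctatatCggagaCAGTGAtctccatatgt
Tfrc element 4, chr16:32631710-32631738: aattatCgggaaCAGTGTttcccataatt
The search asked for C, any 5 bases, CAGTGN and 5 bases that pair with the first 5 (G-T pairs allowed), on the strand of the gene and within 1 exonic UTR segment. It found 85 elements in 82 of the 8536 genes with a dsRNase PPS (0.961% of them), and Tfrc was the gene with 4. An element that a splice junction divides could not be found in this way.

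Day 4 had more dsRNase PPSs than day 2. The call sets held 30485 and 14832 PPSs at day 2 (replicate 1 and replicate 2) and 54935 and 40195 at day 4, and day 0 had 27862 and 32624. Both day 4 sets were larger than both day 2 sets, with a ratio of the means of 2.10 (1.32 to 3.70 over the 4 replicate pairs). The day 2 replicate 2 set stood apart. It was the smallest, and the commonest score of its single-call PPSs was 6.81 against 5.4 in each of the other 3 sets. Without it the ratio was 1.56, and without day 2 replicate 1 it was 3.21. An exact two-sided permutation test of 2 against 2 cannot go below p = 0.333, and this comparison gave that value (p = 0.333). Median lengths were 63 and 65 nt at day 2 and 66 and 67 nt at day 4. The ssRNase sets went the other way, from 51965 and 73952 PPSs at day 2 to 47625 and 48112 at day 4.

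PPSs of introns and 3′ UTRs took larger shares at day 4, and PPSs of CDSs and 5′ UTRs smaller ones. A PPS was counted in each class that it touched. PPSs that touched a CDS made up 43.5% (Wilson 95% interval 43.0 to 44.1) and 53.0% (52.2 to 53.8) of the day 2 sets and 32.5% (32.2 to 32.9) and 36.0% (35.6 to 36.5) of the day 4 sets. The 2 days did not overlap, and the mean difference was -13.97 points (-20.4 to -7.50 over the 4 pairs). Intervals of this kind cover counting error only. PPSs that lay wholly in introns took 28.6% and 19.1% of the day 2 sets and 37.4% and 32.8% of the day 4 sets, a difference of 11.2 points (4.19 to 18.3). At day 0 they took 19.6% and 21.8%, close to the day 2 replicate 2 set. Without that set the CDS difference was -9.24 points. PPSs that touched any intron differed by 9.45 points (3.33 to 15.6). Among PPSs scored at or above the median of their set the difference was 1.67 points (-2.78 to 6.12). With an equal number of top-scoring PPSs in each set it was 7.26 points (-1.05 to 15.6). The days did not separate in either of these settings.

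The 2 ends of mRNAs differed in direction. PPSs touching a 3′ UTR made up 18.2% and 18.5% at day 2 and 19.9% and 21.8% at day 4, a difference of 2.50 points (1.41 to 3.59). PPSs touching a 5′ UTR made up 5.26% and 6.78% at day 2 and 3.29% and 3.43% at day 4, a difference of -2.66 points (-3.49 to -1.83). Between the lowest and the highest pair, neither difference crossed 0. The 3′ UTR difference was 7.10 points (6.17 to 8.02) among PPSs scored at or above the median of their set. It was 1.01 points (-0.195 to 2.21) with PPSs of 20 to 40 nt kept. Among PPSs without an ssRNase call it was 0.126 points (-2.39 to 2.64), so in these last 2 settings it did cross 0. Each p was again 0.333 in the exact permutation test, the smallest this design allows. For ssRNase PPSs the CDS share was higher at day 4 by 6.13 points (3.49 to 8.77) and the wholly intronic share lower by 5.69 points (-8.16 to -3.23). The difference between the 2 nucleases was not tested.

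**Figure D1:**
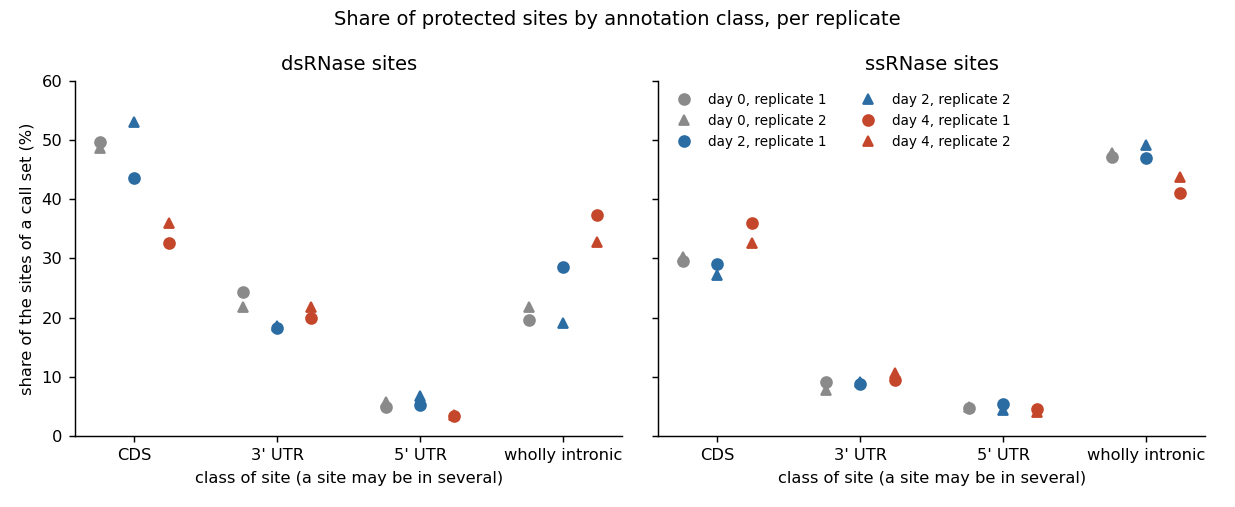
Share of PPSs in each class (vertical axis, percent of the PPSs of a call set) for dsRNase (left) and ssRNase (right), with 1 point for each replicate of day 0 (grey), day 2 (blue) and day 4 (red). Both day 4 dsRNase replicates lie below both day 2 replicates for CDS and 5′ UTR and above them for 3′ UTR and wholly intronic PPSs, and the ssRNase CDS and intronic shares go the opposite way.

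In absolute numbers most classes held more PPSs at day 4. Wholly intronic PPSs numbered 8721 and 2827 at day 2 and 20524 and 13182 at day 4, a ratio of 2.92 (1.51 to 7.26). The ratio was 2.38 (1.58 to 3.99) for 3′ UTRs and 1.53 (1.09 to 2.27) for CDSs. Without day 2 replicate 2 the 3 ratios were 1.93, 1.78 and 1.22. PPSs in 5′ UTRs numbered 1605 and 1006 at day 2 and 1808 and 1380 at day 4. Their ranges overlapped, and the ratio of 1.22 was 0.993 without day 2 replicate 2. PPSs on small noncoding RNA genes numbered 254 and 276 at day 2 and 310 and 301 at day 4 (ratio 1.15).

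Per nucleotide of annotation, CDS coverage went from 5.43% and 3.36% at day 2 to 8.03% and 6.61% at day 4. Coverage of 3′ UTRs went from 2.28% and 1.14% to 5.39% and 4.35%, and that of introns from 0.267% and 0.118% to 0.588% and 0.404%. In each of these 3 regions both day 4 replicates exceeded both day 2 replicates. The ratio of the means was 1.67 for CDSs, 2.84 for 3′ UTRs and 2.58 for introns, and 1.35, 2.13 and 1.86 without day 2 replicate 2. Coverage of 5′ UTRs did not separate the days (2.93% and 1.84% at day 2, 3.22% and 2.44% at day 4). The annotation was that of the 8536 genes with a dsRNase PPS at either day.

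Around the stop codon coverage was higher at day 4 on both sides. In 7559 genes, the first 100 nt of the 3′ UTR were covered to 4.69% and 2.72% at day 2 and to 9.41% and 7.83% at day 4, a difference of 4.91 points (3.13 to 6.69). Over the last 100 nt of the CDS the difference was 4.22 points (2.13 to 6.30) in 8194 genes. At the start codon the days were not separated. The first 100 nt of the CDS differed by 1.47 points (-0.07 to 3.001), and the 100 nt just upstream of it, in the 5′ UTR, by 0.54 points (-0.71 to 1.79).

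Most dsRNase PPSs of day 4 were not dsRNase PPSs at day 2. Of the 78496 day 4 PPSs, 21.8% overlapped a dsRNase PPS of day 2 by at least 1 nt on the same strand, 20.002% overlapped only an ssRNase PPS, 10.6% overlapped only a PPS of 20 to 40 nt, and 47.5% overlapped no PPS of day 2. In the other direction, 42.6% of the 40398 day 2 PPSs overlapped a dsRNase PPS of day 4 and 35.5% overlapped no PPS. These shares must be read against the replicates. Within a day, 16.1% to 41.4% of the PPSs of 1 replicate were shared with the other. Across days, 10.9% to 19.4% of a day 4 set overlapped a day 2 set. In the reverse direction, 32.5% and 25.9% of the day 2 replicate 1 set overlapped the day 4 replicate 1 and replicate 2 sets. Its overlap with day 2 replicate 2 was lower, at 16.1%. Of the day 2 replicate 2 set, 40.001% and 33.0% overlapped these day 4 sets, against 33.2% for day 2 replicate 1. Day 2 PPSs were thus met at day 4 about as often as in the other day 2 replicate, or more often. The part of set size in these shares was not tested. Of the 16634 day 4 PPSs with calls of both replicates, 5495 (33.0%) met no PPS of day 2, and of 4919 such day 2 PPSs, 891 (18.1%) met none of day 4. The 21.8% of day 4 PPSs that were dsRNase PPSs at day 2 became 9.78% without day 2 replicate 1 and 16.5% without day 2 replicate 2.

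Sharing between days varied by class. PPSs on small noncoding RNA genes were shared most, with 82.9% of 351 at day 4 overlapping a dsRNase PPS of day 2. The share was 33.1% for 5′ UTRs, 29.9% for CDSs and 25.1% for 3′ UTRs. Wholly intronic PPSs were shared least among these classes, at 13.4% of 29521. A further 26.5% of these intronic PPSs overlapped only an ssRNase PPS of day 2. Replicates of day 4 differed by class as well. Calls of both were held by 260 of the 351 PPSs on small noncoding RNA genes and by 4185 of the 29521 wholly intronic ones. For 5′ UTRs, CDSs and 3′ UTRs the numbers were 593 of 2595, 6322 of 26040 and 4527 of 15161. Whether sharing between days differed by class beyond sharing between replicates was not tested. From the day 2 side the order of UTRs and CDSs was reversed. The share of day 2 PPSs that overlapped a dsRNase PPS of day 4 was 52.2% for 3′ UTRs, 42.1% for CDSs and 37.5% for 5′ UTRs. It was 36.4% for wholly intronic PPSs and 88.5% for small noncoding RNA genes.

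The sequence under the PPSs differed little between days. PPSs wholly within CDSs had a GC content of 49.6% and 51.1% at day 2 and 48.2% and 48.1% at day 4, a difference of -2.19 points (-3.01 to -1.38). Wholly intronic PPSs went from 44.7% and 46.9% to 43.1% and 43.1% (difference -2.64 points, -3.76 to -1.52). The predicted fold of the central 51 nt was correspondingly weaker at day 4. The mean minimum free energy of intronic PPSs was -8.23 and -8.94 kcal/mol at day 2 and -7.77 and -7.78 kcal/mol at day 4. For PPSs within 3′ UTRs it was -7.59 and -8.05 kcal/mol at day 2 and -7.59 and -7.45 kcal/mol at day 4, so day 2 replicate 1 and day 4 replicate 1 did not separate by 0.01 kcal/mol. Repeat-masked bases made up 7.13% and 10.8% of intronic PPS sequence at day 2 and 6.88% and 6.99% at day 4.

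To compare genes, exonic coverage was computed as the percentage of the union exonic nt of a gene that lay in a dsRNase PPS. A gene was called higher when both day 4 replicates exceeded both day 2 replicates by at least 5 points, and lower in the reverse case. Replicates of a day share merged coordinates, so no p-value was computed for genes. Of 8536 protein-coding and lncRNA genes with a dsRNase PPS, 738 were called higher (8.65%) and 62 lower (0.726%). With no minimum margin, 3393 were higher (39.7%) and 620 lower (7.26%).

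These counts moved with the size of the call sets, and the excess of rises depended on the unit. Counted as exonic PPSs per 10000 PPSs of a set, with a margin of 0.5, 206 genes were higher and 531 lower. When the 14832 top-scoring PPSs of each set were used, 325 of 6592 genes were called higher (4.93%) and 164 lower (2.49%), so that the higher share of all calls was 66.5% in place of 92.2%. That number is the whole day 2 replicate 2 set, so only the other sets were cut. The cut was by scores that appeared to be summed over merged calls. The 2 settings shared 288 higher and 51 lower genes. Leaving out a single set mattered as well. The counts were 879 higher and 260 lower without day 2 replicate 2, 1275 and 130 without day 2 replicate 1, 956 and 118 without day 4 replicate 1, and 1491 and 88 without day 4 replicate 2. The mean exonic coverage differed by 2.21 points (1.02 to 3.39) with all PPSs and by 0.139 points (-0.064 to 0.341) at equal number. Levels of the RNAs were not analysed here, and more protection per RNA, more RNA per cell and more cells of a type cannot be told apart.

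Tfrc, which encodes the transferrin receptor that brings iron into the cell, had the largest rise by the smallest pairwise difference. Its exonic coverage was 6.21% and 6.13% at day 2 and 48.3% and 48.3% at day 4, with 8 and 8 PPSs at day 2 and 27 and 26 at day 4. At day 0 it was 19.7% and 17.7%. In the 3′ UTR, coverage was 7.45% and 3.59% at day 2 and 62.0% and 57.6% at day 4, and in the CDS it was 4.75% and 9.04% against 42.2% and 47.2%. No ssRNase set reached this level (7.26% and 14.4% at day 2, 8.75% and 11.0% at day 4), and the call also held at equal number.

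The 4 hairpins printed above lay outside the dsRNase PPSs of both day 2 replicates. At day 4, elements 2 and 4 were covered to 100% in both replicates and element 3 to 69.0% in both. In both replicates a PPS ended at 1342 nt from the end of the coding sequence and the next began at 1351 nt. Element 3 lay across this gap, which held all of its CAGTGA loop but the first base. Element 1 was covered to 100% in replicate 1 and to 0% in replicate 2. At day 0 elements 2 and 4 were covered in replicate 2 only. No ssRNase PPS of day 2 or day 4 covered as much as 50% of any of the 4. Among the 81 elements found in other genes, the number covered over at least 50% of their length was 4 and 1 at day 2 and 3 and 3 at day 4. These included the 5′ UTR hairpin of Ftl1, the ferritin light chain, which was covered to 100% in both day 2 replicates and in day 4 replicate 1 and to 0% in day 4 replicate 2. The number covered thus did not separate the days over the matches in other genes, few of which were covered in any set. The Tfrc hairpins lay in a 3′ UTR covered to 7.45% and 3.59% at day 2 and to 62.0% and 57.6% at day 4. Over the genes with a dsRNase PPS, day 4 coverage was 5.39% and 4.35% for 3′ UTRs and 3.22% and 2.44% for 5′ UTRs. Whether elements were covered more often than the UTR sequence around them was not tested. Whether the matches in other genes work as iron-responsive elements was not tested. The elements were searched after the Tfrc values were known.

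**Figure D2:**
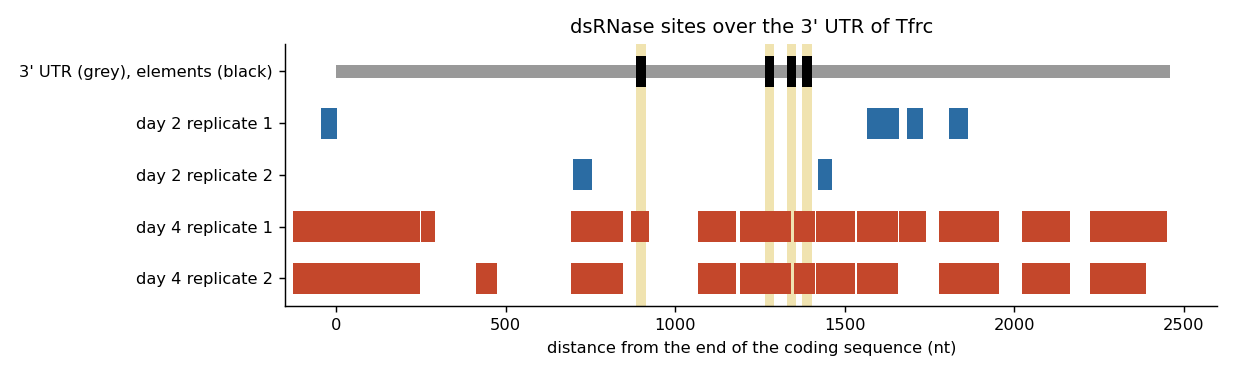
dsRNase PPSs (bars) of each call set along the 3′ UTR of Tfrc, by distance in nt from the end of the coding sequence, with the UTR in grey and the 4 iron-responsive elements in black over yellow bands. No day 2 PPS touches an element, and at day 4 the PPSs of replicate 1 reach all 4 and those of replicate 2 reach 3. In both day 4 replicates most of the loop of element 3 lies in a gap between PPSs.

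Slc25a37 encodes mitoferrin 1, the carrier that moves iron into the mitochondria of erythroid cells. Its exonic coverage was 19.2% and 12.1% at day 2 and 62.9% and 58.7% at day 4, from 7.44% and 2.59% at day 0. The change lay in the 3′ UTR, where coverage was 16.6% and 14.6% at day 2 and 80.3% and 77.1% at day 4. Its CDS did not separate the days (31.7% and 18.1% against 30.5% and 21.5%). Many of its PPSs also held ssRNase calls, and with those left out the rise was 5.42 points and no longer passed the margin.

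Coverage of the 3′ UTR was also higher at day 4 in several of the other largest rises. Cd24a, a cell surface glycoprotein of early blood cells, had a 3′ UTR covered to 25.3% and 3.59% at day 2 and to 75.2% and 77.5% at day 4, with CDS values of 16.5% and 16.5% against 11.0% and 14.6%. In Xlr3c, of the X-linked lymphocyte-regulated family, the 3′ UTR went from 8.02% and 0% to 85.0% and 73.8%. Xlr3c has near-identical copies, so reads may be divided among them. In Btg2, an antiproliferative factor that works with mRNA deadenylases, the 3′ UTR went from 7.95% and 8.81% to 46.5% and 39.5%, and no day 0 PPS lay in its exons. Its CDS was also higher, at 0% in both day 2 replicates and 24.3% and 15.0% at day 4.

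In other genes the CDS took part. Dennd4c, an exchange factor of Rab GTPases, had CDS coverage of 11.1% and 6.92% at day 2 and 55.9% and 51.04% at day 4. In Ranbp6, of the importin family, the values were 35.2% and 20.996% against 83.5% and 66.0%. Klhl11, a kelch-like protein, had 5.64% and 7.19% against 43.6% and 43.1%. The groups did not overlap in any of these 3 genes. On the exons of Ranbp6, 14 of the 17 dsRNase PPSs of day 4 also held ssRNase calls, and with such PPSs left out its difference was -0.51 points.

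The remaining 4 genes with the largest rises by the fixed rule were the RNA helicase gene Ddx17, the insulin receptor substrate gene Irs2, the O-GlcNAc transferase gene Ogt and Tmem14c, which encodes a mitochondrial membrane protein needed for heme synthesis. Ddx17 exonic coverage was 11.8% and 11.1% at day 2 and 43.3% and 40.5% at day 4. Irs2 stood at 10.5% and 14.4% against 45.8% and 42.2%. Tmem14c stood at 6.46% and 6.46%, from the same merged PPS in both replicates, against 48.1% and 33.7%. Ogt was already covered to 39.5% and 29.8% at day 2 and to 51.8% and 56.6% at day 0, and reached 75.3% and 66.2%. All 12 were also called higher at equal number. With PPSs that held an ssRNase call left out, Ddx17 had a difference of -0.43 points, and Ogt, at 8.07 points, no longer passed the margin.

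The sequences of PPSs that held calls of both day 4 replicates and met no PPS of day 2 are shown for 3 of these genes, as the central 30 nt, with capitals on bases that are paired in the minimum free energy fold of the central 51 nt.
Ranbp6 3′ UTR, minus strand, chr19:29809472-29809501: gtctcctgtttaCTTtGCACgtgtCACttc
Klhl11 CDS, minus strand, chr11:100472254-100472283: gaccCGaaCCTGAcACGGTggaaGCCGTta
Irs2 3′ UTR, minus strand, chr8:10985339-10985368: TTACtgagctGtTAAAGGATctccGGAaat
The PPSs around them were 84, 83 and 79 nt long, and their predicted energies were -6.5, -9.3 and -8.8 kcal/mol.

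**Figure D3:**
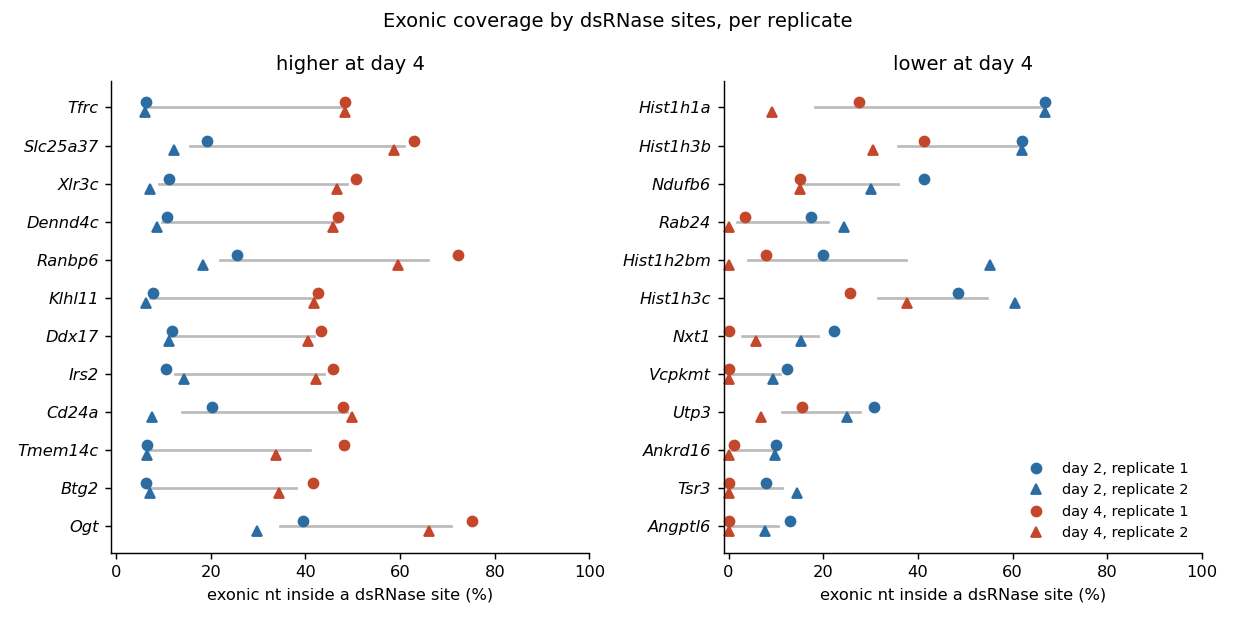
Exonic coverage by dsRNase PPSs (horizontal axis, percent of exonic nt) of the 12 genes with the largest rises (left) and the 12 with the largest falls (right), with 1 point per replicate and a grey line joining the 2 means. Day 4 points (red) lie right of day 2 points (blue) for all genes on the left and left of them for all genes on the right, by construction of the rule.

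Falls were led by replication-dependent histone genes, whose mRNAs lack a poly(A) tail and end in a conserved stem-loop. Hist1h1a (ENSMUSG00000049539.3, chr13:23763666-23764406, plus strand), a linker histone gene, was covered to 66.9% and 66.9% at day 2 and to 27.5% and 9.18% at day 4. Hist1h3b stood at 61.9% and 61.9% against 41.3% and 30.5%, and Hist1h3c at 48.6% and 60.5% against 25.6% and 37.6%. Hist1h2bm stood at 20.04% and 55.2% against 8.02% and 0%. Equal day 2 values come from merged PPSs that hold calls of both replicates. Histone genes are near-identical copies and the authors' alignment kept up to 10 hits per read, so the share of 1 gene is uncertain.

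The histone list held 67 genes, of which 61 had a dsRNase PPS. Of these, 17 were called lower and 6 higher, beside 0.726% and 8.65% of all genes, and their median change was -9.75 points against 1.19 points over all genes. Hist2h2ac had the largest absolute change, from 72.5% and 72.5% to 13.1% and 0%. Hist1h2bk went from 49.4% and 62.4%, and Hist1h2bl from 34.4% and 70.6%, to 0% in both day 4 replicates. At equal number 23 histone genes were called lower and 1 higher. Without day 2 replicate 2, 23 were lower and 12 higher. The ssRNase sets gave 12 lower and 1 higher for this list, beside 239 lower and 243 higher over all genes. The histone genes whose coverage is given above were not among these 12. Their ssRNase coverage was 0% in day 2 replicate 2. PPSs with calls of both nucleases count in both kinds of set, so the dsRNase and ssRNase counts are not independent. With PPSs that held an ssRNase call left out, Hist1h3b, Hist1h3c and Hist2h2ac turned to differences of 16.5, 31.6 and 6.54 points.

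The 3′ stem-loop of histone mRNAs was seldom inside a dsRNase PPS at these days. The motif GGNTCTTTTNAGNGCC was found near the annotated end of 32 of the 67 histone genes (47.8%), on the strand of the gene. It was covered over at least 50% of 28 nt in 7 and 8 genes at day 0, in 1 and 1 at day 2 and in 4 and 1 at day 4. The 1 gene at day 2 was Hist1h2bl, whose stem-loop was covered to 89.3% in both day 2 replicates and to 0% in both day 4 replicates, and it is shown for that reason with the motif in capitals.
Hist1h2bl stem-loop, minus strand, chr13:21715712-21715739: ctcaaaGGCTCTTTTAAGAGCCacccac
At day 4 the stem-loop of Hist1h2ab was covered in both replicates, and neither day 2 replicate covered it.

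The other 8 of the 12 largest falls were spread over different functions. Ndufb6, a subunit of respiratory complex I, stood at 41.3% and 30.2% at day 2 and 15.2% and 15.2% at day 4, and its 3′ UTR went from 46.1% and 28.3% to 0% in both day 4 replicates. Rab24, a small GTPase, stood at 17.5% and 24.4% against 3.37% and 0%. Nxt1, a cofactor of mRNA export, stood at 22.2% and 15.4% against 0% and 5.82%. These 3 genes were low in both day 4 replicates and the groups did not overlap.

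Utp3 and Tsr3 act in ribosome biogenesis, and both were among the falls. Utp3, a component of the small subunit processome, was covered to 30.8% and 24.9% at day 2 and to 15.5% and 6.94% at day 4. Tsr3, a modifying enzyme of ribosomal RNA, was covered to 7.97% and 14.4% at day 2 and had no exonic dsRNase PPS at day 4. Angptl6, an angiopoietin-like gene, and Vcpkmt, a lysine methyltransferase gene, also had no exonic dsRNase PPS at day 4, from 13.1% and 7.78% and from 12.4% and 9.45%. Ankrd16 stood at 10.1% and 9.75% against 1.25% and 0%. Of the 12 falls, all but Vcpkmt were also called lower at equal number. With PPSs that held an ssRNase call left out, Rab24 and Angptl6 had a difference of 0 points, Ankrd16 one of 0.62 points, and Nxt1 (-13.4 points) and Hist1h2bm (-2.10 points) missed the margin.

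One lost PPS of Utp3 is shown, from its CDS, because it held calls of both day 2 replicates and met no PPS of day 4 (capitals as above).
Utp3 CDS, plus strand, chr5:88554775-88554804: gCGATcTCGggCAGTCCTggccaAGGGCTG
It was 110 nt long, with a predicted energy of -18.0 kcal/mol. Its record also held 2 ssRNase calls, and with such PPSs left out Utp3 turned to a difference of 5.34 points.

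Genes of the red cell came next. All 7 erythroid markers had a dsRNase PPS, and 3 of the 14 markers of other blood cells had one. The non-erythroid markers summed to 16.5 and 24.7 points of coverage at day 2 and to 25.2 and 34.5 at day 4, and their part in the results below was not tested. None of the 3 was called in either direction with all PPSs, 1 was called higher without day 2 replicate 2 and Pf4 was called lower at equal number. Of the erythroid markers, Slc4a1, the anion exchanger gene, had no exonic PPS at day 2 and 8.34% and 5.46% at day 4. The globin gene Hba-a1 and the transcription factor genes Gata1 and Klf1 were not called. Of the 3 non-erythroid markers, Itga2b, the integrin of platelets and megakaryocytes, had the highest values, at 7.81% and 16.1% against 13.5% and 23.0%. Pf4 stood at 6.93% and 6.93% against 11.5% and 11.5%, and Spi1 at 1.71% and 1.71% against 0.223% and 0%.

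The list of red cell membrane and skeleton genes had the largest share of rises among the lists compared at the 5-point margin with all PPSs. Larger shares were those of terminal maturation genes at equal number, of SR protein and hnRNP genes and the 5 pulldown targets and controls with no minimum margin, and of globins without day 2 replicate 2. Of 24 genes, 22 had a dsRNase PPS, 12 were called higher and 0 lower, beside 8.65% and 0.726% of all genes, and with no minimum margin 15 were higher and 1 lower. The median change was 9.21 points. The glycophorin gene Gypc went from 11.0% and 1.97% to 36.9% and 31.0%. Rhag, the Rh-associated glycoprotein gene, went from 12.5% and 6.20% to 35.7% and 29.2%, beside 28.2% and 29.2% at day 0. At equal number 6 genes of the list were called higher, and without day 2 replicate 2 the counts were 12 higher and 1 lower.

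With all PPSs, iron and heme genes had rises and no falls, beside 8.65% higher and 0.726% lower of all genes. With so few falls over all genes, their absence from lists of this size says little. At equal number 2 iron genes were called higher and 1 lower, and 1 heme gene higher, beside 4.93% and 2.49% of all genes. In iron handling, 5 of 15 genes were called higher, among them Tfrc, Slc25a37 and Pcbp2, an RNA-binding protein that also carries iron, which went from 4.71% and 3.09% to 16.7% and 14.0% and shares exonic positions with another gene. In heme synthesis, 2 of 8 genes were called higher. Alas2, the first and rate-limiting enzyme of the pathway in erythroid cells, went from 12.5% and 8.70% to 35.9% and 28.6%. Fech, which inserts iron into the ring, stood at 5.43% and 0.780% against 11.1% and 8.88% and missed the margin.

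The globins had high coverage but unequal day 4 replicates. Of 4 globin genes with a PPS, 1 was called higher, beside 8.65% of all genes. Without day 2 replicate 2, 3 were called higher, beside 879 of all 8536 genes. Hbb-bs, an adult beta globin gene, stood at 11.1% and 29.4% at day 2 and 78.9% and 38.8% at day 4, with no PPS at day 0. Hba-a1, an adult alpha globin gene, stood at 27.2% and 45.1% against 76.8% and 48.3%, and Hbb-bt at 12.1% and 30.2% against 65.4% and 18.1%. Day 4 replicate 1 was the higher of the 2 in all 3 genes. The adult globin genes have near-identical copies, and at equal number none was called.

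Among erythroid transcription factors, 5 of 13 were called higher and 0 lower, and with no minimum margin 8 were higher and 1 lower. Over all genes the shares were 8.65% and 0.726%, and 39.7% and 7.26% with no minimum margin. Tal1, a master regulator of blood formation, went from 9.48% and 12.6% to 53.2% and 37.6%. Foxo3, a factor of late maturation, went from 4.99% and 6.42% to 20.6% and 20.4%, and E2f4 from 2.85% and 2.24% to 13.0% and 20.8%. Of 12 terminal maturation genes 4 were called higher, and 4 were at equal number. They included Btg2, the mitophagy receptor gene Bnip3l (7.49% and 3.39% against 28.8% and 22.6%) and the ubiquitin conjugase gene Ube2l6, which had no exonic PPS at day 2 and 12.4% and 6.71% at day 4.

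Cell cycle genes did not exceed the background in rises. Of 24 genes of DNA replication and the cell cycle, 1 was called higher and 0 lower, beside 8.65% and 0.726% of all genes. With no minimum margin 7 were higher and 3 lower, beside 39.7% and 7.26% of all genes. The gene called higher was Ccnd2, cyclin D2, at 2.50% and 4.09% against 23.3% and 15.3%. Myc stood at 6.88% and 15.8% against 20.1% and 22.5%, and the helicase subunit gene Mcm4 at 2.95% and 0% against 12.7% and 7.77%. Both missed the margin and both were higher at day 0 (27.1% and 32.0% for Myc, 28.7% and 30.1% for Mcm4).

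**Figure D4:**
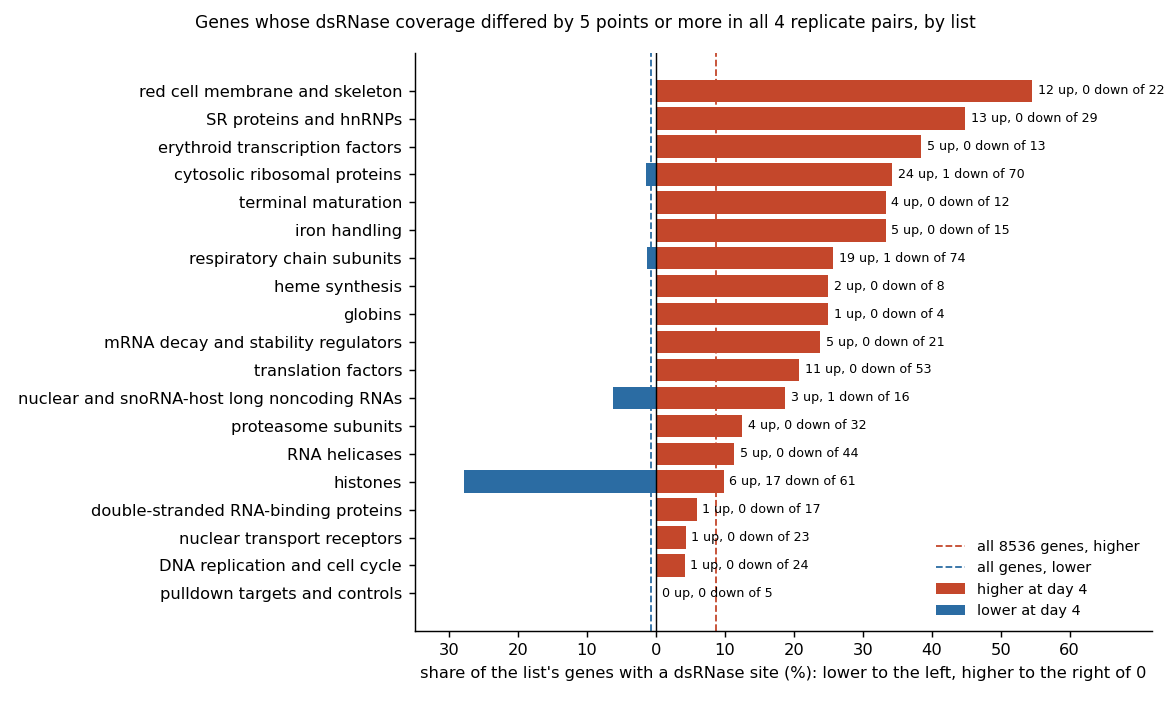
Share of each list's genes with a dsRNase PPS that were called higher (red, right) or lower (blue, left) at day 4, with the counts beside each bar and dashed lines at the shares over all genes (8.65% higher, 0.726% lower). Red cell membrane genes lie farthest right, with 12 of 22 called higher, and histones are the list with the largest share of falls, with 17 of 61.

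Genes of RNA and protein production made up the other large lists. Their counts stand beside 8.65% higher and 0.726% lower of all genes (39.7% and 7.26% with no minimum margin). Of 29 SR protein and hnRNP genes, which encode splicing regulators, 13 were called higher and 0 lower (21 and 0 with no minimum margin). Hnrnpa1 went from 3.36% and 12.3% to 33.6% and 26.5%, Hnrnph1 from 16.1% and 9.31% to 35.2% and 32.1%, and Hnrnpu from 15.2% and 10.9% to 33.7% and 28.8%. The 3′ UTR of Hnrnph1 was covered to 29.5% and 0% at day 2 and to 73.5% and 59.7% at day 4.

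Of 70 cytosolic ribosomal protein genes, 24 were called higher and 1 lower. The ssRNase sets gave 0 higher and 13 lower for the same list, and the difference was not tested. Rpl23a, which shares exonic positions with another gene, went from 13.6% and 5.43% to 40.6% and 25.3%, and Rps27l from 6.99% and 6.62% to 22.2% and 32.5%. Ribosomal protein genes have many processed copies, so their reads may be divided. At equal number 12 were called higher and 5 lower. Of 74 respiratory chain genes, 19 were called higher and 1 lower. At equal number 10 were higher and 7 lower, and without day 2 replicate 2 the counts were 24 and 4. The largest change of the mean was that of Cox6b1, a subunit of cytochrome c oxidase (9.32% and 0% against 41.4% and 33.2%). Uqcrfs1, the Rieske protein gene, stood at 19.0% and 6.68% against 30.4% and 34.3%.

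Of 53 translation factor genes, 11 were called higher and 0 lower (30 and 1 with no minimum margin). The 3 with the largest change were Eif3b (8.94% and 4.84% against 30.2% and 23.6%), Eif2s3x (12.01% and 2.60% against 29.7% and 19.4%) and Eif5a (4.502% and 11.2% against 26.3% and 20.95%). Of 32 proteasome genes 4 were higher, a share near the 8.65% of all genes. Among them Psmc5 stood at 12.8% and 12.8% against 37.7% and 23.7%, and Psmc1 at 6.73% and 4.45% against 24.004% and 17.1%. Psma5 missed the margin (11.8% and 0% against 20.1% and 15.2%). At equal number 1 of 30 proteasome genes was higher, beside 4.93% of all genes. Without day 2 replicate 2, 8 proteasome genes were higher, beside 879 of all 8536 genes.

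Of 44 RNA helicase genes, 5 were called higher and 0 lower, a share near the background of 8.65%. They included Ddx17 and its paralog Ddx5, which stood at 21.9% and 17.7% against 53.4% and 45.6% and shares exonic positions with another gene, and Ddx3x (13.3% and 5.93% against 27.9% and 21.8%). Of 21 genes of mRNA decay, 5 were higher, with Zfp36l2, a binder of AU-rich elements, at 14.7% and 14.1% against 36.0% and 31.7%. Its 3′ UTR was covered to 28.5% and 27.3% at day 2 and to 65.4% and 61.3% at day 4. The deadenylase gene Cnot6 went from 7.85% and 7.19% to 22.6% and 15.4%.

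Genes of double-stranded RNA-binding proteins and of nuclear transport receptors did not stand out. Over all genes 8.65% were called higher, and 39.7% were higher with no minimum margin. Of 17 genes of double-stranded RNA-binding proteins 1 was called higher (8 with no minimum margin). It was Stau1, which went from 0.824% and 0.742% to 7.24% and 6.02%. Drosha, the nuclease of primary microRNAs, stood at 7.01% and 4.62% against 11.8% and 13.8% and missed the margin. Of 23 nuclear transport receptor genes 1 was called higher, which was Ranbp6. Kpna2 stood at 11.9% and 11.3% against 19.5% and 15.9% and Kpna4 at 1.51% and 1.01% against 8.37% and 4.43%, and both missed the margin, as did Zfr among the double-stranded RNA-binding proteins (4.28% and 4.11% against 11.0% and 5.16%). None of the 5 genes that the study used as pulldown targets or controls was called, although all 5 were higher at day 4 with no minimum margin. Among them Aff1 stood at 3.98% and 2.74% against 10.4% and 8.75%, Dkc1 at 4.25% and 3.25% against 7.64% and 9.25%, and Appl2 at 2.39% and 0% against 6.05% and 5.66%.

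Of 16 noncoding nuclear RNAs and snoRNA host genes, 3 were called higher and 1 lower, beside 8.65% and 0.726% of all genes. Neat1, the scaffold of paraspeckles, went from 8.67% and 6.14% to 21.6% and 24.7%, and Snhg8 from 17.9% and 17.9% to 46.8% and 41.7%. Both share exonic positions with another gene. Epb41l4aos, a snoRNA host, had 1 PPS in each day 2 replicate (23.95% of its exonic nt in both) and none at day 4. All dsRNase PPSs on the exons of Epb41l4aos and Snhg8 also held ssRNase calls.

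Some calls of the list genes depended on the setting. At equal number Hbb-bs, Foxo3, Pcbp2, Rps27l, Eif3b, Eif5a, Hnrnpa1, Stau1, Ddx3x, Cnot6, Psmc5, Psmc1 and Uqcrfs1 were not called. With PPSs that held an ssRNase call left out, E2f4, Gypc, Hnrnpu, Stau1, Ddx5, Cnot6, Uqcrfs1, Eif2s3x and Neat1 kept a higher day 4 mean and missed the margin.

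Intronic PPSs were concentrated in some genes. They were counted per 10000 PPSs of a call set, a rate that is lower for the same number of PPSs in a larger set. Of 5069 genes with a wholly intronic PPS, 363 were called higher (7.16%) and 59 lower (1.16%) at a margin of 0.5. Without day 2 replicate 2 the counts were 443 and 301. Sptb, the beta chain of spectrin, had the largest rise. Its introns (chr12:76580488-76710547, minus strand) held 23 and 10 PPSs at day 2 and 123 and 86 at day 4, or 7.54 and 6.74 per 10000 against 22.4 and 21.4. Both day 4 replicates were far above both day 2 replicates, and at day 0 there were 0 and 1.

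Cpeb4, a cytoplasmic polyadenylation factor, followed with 8 and 5 intronic PPSs at day 2 and 90 and 64 at day 4 (2.62 and 3.37 against 16.4 and 15.9 per 10000). Cmss1 had 9 and 4 against 77 and 67, Plcl2 had 7 and 4 against 55 and 45, and the kinase gene Hipk2 had 11 and 3 against 80 and 36. The introns of Cpeb4 held 1 PPS in each day 0 replicate. Cmss1 and Plcl2 had 9 and 9, and 7 and 7, at day 0, about the numbers of day 2 replicate 1.

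Among the falls, Bcl11a, a repressor of fetal globin genes, had 16 and 8 intronic PPSs at day 2 and 6 and 2 at day 4 (5.25 and 5.39 against 1.09 and 0.498 per 10000). At day 0 it had 28 and 47. Slc7a1, a transporter of cationic amino acids, had 16 and 8 against 10 and 2. Golt1b, the asparagine synthetase gene Asns and the lipid kinase gene Pip4k2a had 11 and 5, 7 and 4, and 11 and 4 at day 2 against 9 and 6, 4 and 3, and 7 and 4 at day 4. Except for Bcl11a, these are falls of the rate alone: the numbers of Slc7a1, Golt1b, Asns and Pip4k2a overlapped between days, and the day 4 sets were larger.

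**Figure D5:**
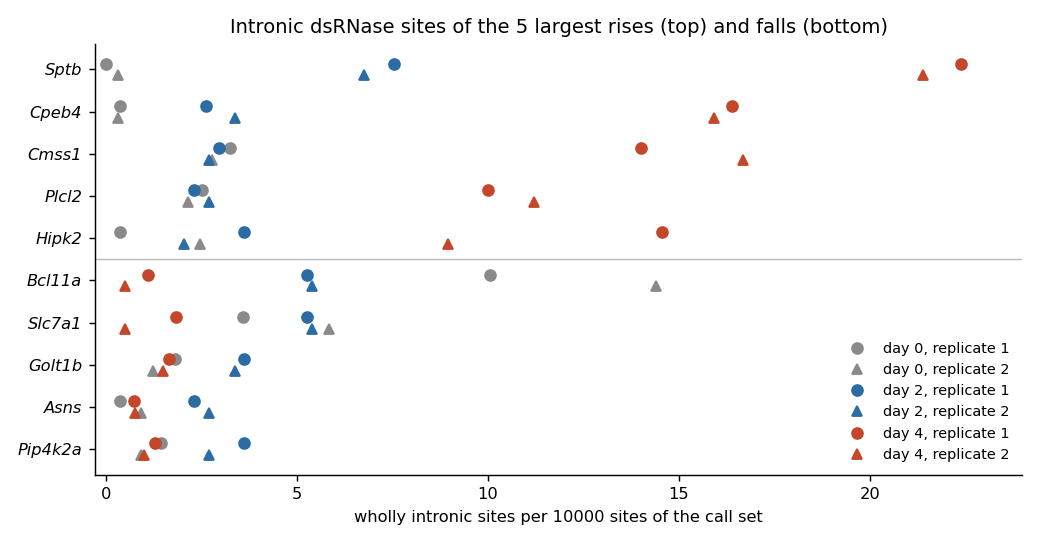
Wholly intronic dsRNase PPSs per 10000 PPSs of a call set (horizontal axis) for the 5 genes with the largest rises (above the line) and the 5 with the largest falls (below), with 1 point per replicate of day 0 (grey), day 2 (blue) and day 4 (red). Sptb reaches 22.4 and 21.4 at day 4, and the day 0 points of Bcl11a lie above its day 2 points.

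The red cell membrane list also led in introns. Of 19 genes with an intronic PPS, 7 were called higher (among them Add1, Ank1, Cd47, Epb41, Sptb and Tmod1) and 0 lower, beside 7.16% and 1.16% of all genes. Together the 19 genes held 110 and 36 intronic PPSs at day 2 and 446 and 313 at day 4, which is 36.1 and 24.3 per 10000 against 81.2 and 77.9. At day 0 the rates were 8.97 and 7.36. Without day 2 replicate 2, 7 were higher and 1 lower. In heme synthesis Alas2 was called higher, in iron handling Abcb10 and Slc25a37 were, and among erythroid transcription factors Foxo3 and Zfpm1 were higher and Bcl11a and Gfi1b lower. No gene of the cell cycle list, the ribosomal protein list or the respiratory chain list was called by this measure, and their summed rates at day 4 were 6.01 and 2.99, 6.19 and 4.48, and 6.55 and 6.22 per 10000.

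Intronic PPSs of both days lay at similar distances from exons. The median distance to the nearest exon edge was 1589 and 1530 nt at day 2 and 1667 and 1659 nt at day 4. The share within 100 nt of an exon was 6.93% and 7.004% at day 2 and 6.26% and 6.32% at day 4, lower at day 4 by 0.61 to 0.74 points over the 4 pairs.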

How the data were processed

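The authors trimmed reads with cutadapt 1.2.1, collapsed duplicates, aligned to mm10 with TopHat2 2.0.10 (2 mismatches, up to 10 hits) and called PPSs at a false discovery rate of 5% with a modified CSAR, a Poisson test of footprint against structure-only coverage. The deposited score of a PPS is the authors' enrichment value, which appeared to be summed over merged calls. Calls of a day were merged into 1 list, and the name field gives nuclease and replicate of each call, from which the 4 call sets were built. Scaling between libraries was not given in the sources used here.

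PPS ends fell inside GRCm38 chromosome lengths. GENCODE M21 genes on 21 chromosomes were used. Overlap needed 1 nt on the same strand. Structures were predicted with ViennaRNA 2.7.2, Wilson intervals (95%) came from statsmodels 0.14.6, and permutation tests and counts from scipy 1.17.1, pandas 2.3.3 and numpy 2.4.6 under Python 3.11.15. The gene call and the counting functions were tested on changes planted in the day 2 replicate 1 set, with identical simulated replicates. That test checked the computation and cannot give an error rate for the real sets. Named genes were the 12 largest rises and 12 largest falls among called genes with at least 500 exonic nt, at least 3 PPSs at either day, no shared exonic position and no predicted-gene symbol, the 3 largest absolute changes of each of 20 lists, and the 5 largest rises and falls of intronic rate. In naming genes by intronic rate, those with a body that overlaps another gene or a predicted-gene symbol were passed over, which the rule as written did not state. PPSs, hairpins and stem-loops were also named after their values were seen. The members and lists were chosen with earlier results of these data known. Alternatives changed set size, score, length filter, nuclease or replicate support, overlap, margin, unit, gene filter and annotation. Those for lists, introns, class numbers and windows without day 2 replicate 2 were added after seeing the data. Structure-only profiles and RNA levels were not analysed here. Some genes that the naming rule selects are not reported here.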

Additional observations from a re-analysis of the deposited data

Results flagged for a closer look

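The 2 nucleases moved in opposite directions from day 2 to day 4 in all 4 replicate pairs for 7 measures, and none of these differences was tested. The dsRNase change minus the ssRNase change was -20.1 points for the CDS share, 12.4 points for the intron share, -16.0 points for the wholly exonic share, 16.9 points for the wholly intronic share, -2.36 points for PPSs across an exon-intron boundary and 1.16 points for the intergenic share. For the number of PPSs it was 39997. PPSs with calls of both nucleases count in both, and they made up 48.6% and 53.3% of the dsRNase sets at day 2 and 38.3% and 40.04% at day 4.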

How the results depend on the processing

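The 2 days differ in the size of their call sets, the lists do not give read depth, and 2 replicates a day cannot reach a p below 0.333. With an equal number of top-scoring PPSs in each set, the site ratio was 1.0 by construction, the 3′ UTR difference 3.64 points, the share of day 4 PPSs shared with day 2 30.7%, the mean coverage difference 0.139 points, and the genes higher and lower 325 and 164, while Kpna2 (-8.32 points) and Pf4 (-6.93 points) turned. Among PPSs scored at or above the median of their set the intron difference was 1.67 points (-2.78 to 6.12) and the 3′ UTR difference 7.10 points. With PPSs of 20 to 40 nt kept, the 3′ UTR difference was 1.01 points (-0.195 to 2.21). Without PPSs that held an ssRNase call, the intron difference was 15.7 points, the 3′ UTR difference 0.126 points, the shared PPSs 10.8%, and the genes 441 and 21. Ranbp6 (-0.514), Ddx17 (-0.425), Hist1h3b (16.5), Hist1h3c (31.6), Utp3 (5.34), Ankrd16 (0.624) and Hist2h2ac (6.54 points) turned there. With calls of both replicates required, the ratio was 3.38, the 3′ UTR difference 6.32 points, the shared PPSs 9.37% and the lower genes 129. A 50% overlap gave 14.4% shared PPSs. A margin of 10 points gave 241 and 23 genes, and any margin above 0 gave 3393 and 620. Exonic PPSs per 10000 gave 206 and 531 genes, so that falls outnumbered rises. Over all annotated genes mean coverage differed by 0.587 points. Leaving out each replicate gave site ratios of 1.56 to 3.21, shared PPSs of 9.78% to 25.6%, 879 to 1491 higher genes and 88 to 260 lower genes. Deviations of same-numbered replicates did not correlate across genes (-0.001). With the replicate block, which compared same-numbered replicates only, the genes were 995 and 79 and the shared PPSs 15.0%. All 61 called named genes kept their call there by construction, since the pairs of the block are among the 4 of the main call. Of these 61, 46 kept their call at equal number and 35 without ssRNase calls. The cause of these shifts was not tested.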
